A study of Rattus norvegicus with 8 samples.

Results

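The genes described here were abundant and near constant over all 8 libraries of rat meningeal endothelial cells. They were chosen from the raw counts, with CPM taken as the count divided by all counted reads of the library, times 1000000. A gene belonged to the group where its CPM was 100 or more in every library and its highest CPM was at most 1.25 times its lowest. Of 32754 Ensembl identifiers, 1458 reached 100 CPM in every library, and 269 of these also kept within the bound, 18.4% of the abundant genes and 0.821% of all identifiers. The values of all 8 libraries made the choice, so the levels, the spread and the difference between tissues of these 269 genes are descriptions, with no test.

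RNA was sequenced in bulk from CD31+ CD45- CD11b- cells sorted from the brain dura and the brain leptomeninges of naive wild-type rats of the inbred Lewis strain. Endothelial cells carry CD31 on their surface, and CD45 and CD11b mark leukocytes. There were 4 libraries of each tissue, each from a pool of 4 animals, and no animal was treated. The labels give no age or sex, and pooling leaves differences between single animals unmeasured.

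Every cell needs a common set of genes for making and breaking down proteins, processing RNA, moving cargo between compartments and releasing energy. Genes of this kind are often called housekeeping genes, and some serve as reference genes, against which other transcripts are measured. The 2 tissues carry different vessels: those of the dura are permeable, while those of the leptomeninges have tight junctions and belong to the barrier between blood and the central nervous system. A reference gene for comparing them has to have an equal level in both, and whether it does depends on how the libraries are scaled. The deposited tables name genes by identifier alone, and 0 of the identifiers were paired with a symbol in the gene table used here. The functions of the 269 genes, their sequences and the markers of the sorted cells were not analysed here.

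Depth lay between 13291422 and 34451333 counted reads per library. At this depth the smallest count of any of the 269 genes in any library was 1364, where counting alone gives an error of 2.71%. This covers the sampling of reads alone, because copies of 1 molecule made by amplification were counted as separate reads. Dura replicate 1 had a count for 21021 genes, against 14915 to 16345 in the other dura libraries. Leptomeninges replicate 2 correlated less with its own tissue than the other leptomeninges libraries did, with a mean r of 0.977 against 0.982 to 0.983 (log2 of CPM plus 1, across genes, which are not independent replicates). Values are given with and without dura replicate 1 and leptomeninges replicate 2 where they bear on a result. In bulk RNA, fewer cells of a type and less RNA per cell cannot be told apart.

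The 269 genes took nearly the same share of the reads in every library. The rule holds the share of each gene within 1.25-fold, so it bounds their summed share too. Their share was 6.92%, 7.17%, 7.18% and 7.25% in dura replicates 1 to 4, and 7.08%, 7.07%, 7.05% and 7.12% in leptomeninges replicates 1 to 4. The dura libraries averaged 7.13 ± 0.142% (SD, n = 4) and the leptomeninges libraries 7.08 ± 0.0291% (SD, n = 4). Dura replicate 1 was the lowest of the 8 and dura replicate 4 the highest, and the tissues overlapped. All 1458 abundant genes together took between 60.9% and 64.9% of the reads.

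The group was drawn mostly from the lower part of the abundant range. Mean CPM over the 8 libraries ran from 108 to 2706 with a median of 186, against a median of 233 and a highest value of 19391 for the other 1189 abundant genes. CPM is not corrected for gene length, so these values rank shares of reads and not copies of RNA. Of 626 abundant genes with a mean between 100 and 200 CPM, 150 (23.96%) belonged to the group. The share was 16.5% (95 of 575) between 200 and 500 CPM, 11.2% (18 of 160) between 500 and 1000 CPM, and 6.19% (6 of 97) at 1000 CPM or more. The median ratio of highest to lowest CPM over all abundant genes rose through these bins, from 1.375 through 1.4998 and 1.660 to 1.821. The floor of 100 CPM in every library drops genes with a mean near it and a wide range. Part of the trend with level therefore comes with the rule, and how much was not tested. The group held 0 of the 10 genes of highest mean CPM, 6 of the top 100 and 56 of the top 500, and its leading gene ranked 24.

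**Figure D1:**
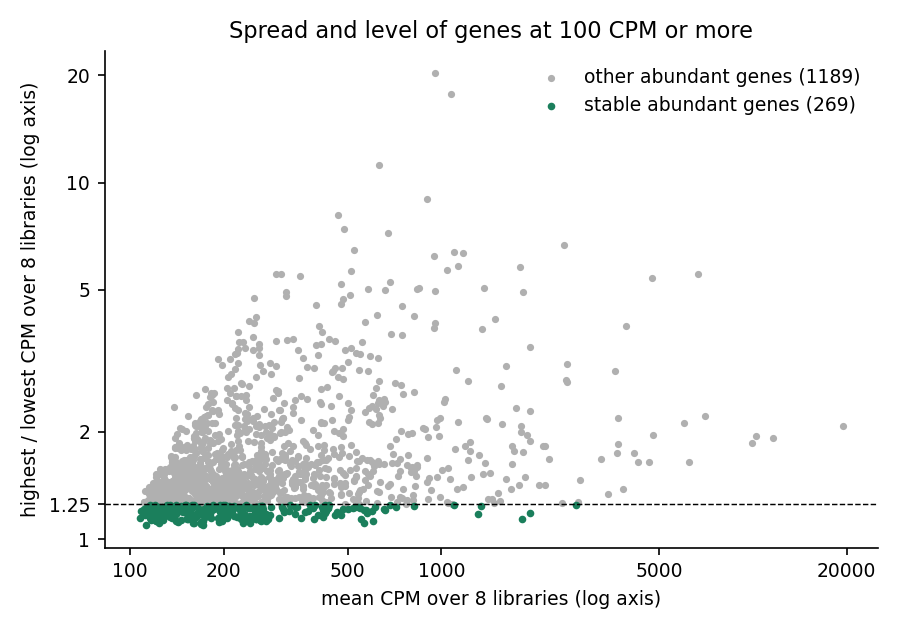
Each point is 1 of the 1458 genes at 100 CPM or more in all 8 libraries, with its mean CPM on a log axis against the ratio of its highest to its lowest CPM on a log axis. The 269 stable abundant genes, in green, lie under the dashed line at 1.25 and thin out above 1000 CPM, where 6 of them remain.

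Within the group the ratio of highest to lowest CPM ran from 1.09 to 1.25, with a median of 1.198. A ratio of at most 1.1 was reached by 2 genes, at most 1.15 by 50 and at most 1.2 by 138. The bound cut through a continuous range. The 3 genes just inside it had ratios of 1.248, 1.249 and 1.250 to 3 decimals, and the 3 just outside had 1.251, 1.252 and 1.252. At the other bound, the 3 genes just inside had lowest values of 100.01, 100.5 and 101.4 CPM, and the 3 just outside had 98.7, 98.5 and 98.4 CPM. Among the other abundant genes the median ratio was 1.54 and the highest 20.3, and 273 of the 1458 abundant genes (18.7%) varied more than 2-fold.

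The spread between libraries was also set against the sampling of reads. A chi-square of the 8 counts against 1 common share gave a median of 13.9 per degree of freedom over the 269 genes, where counting error alone gives about 1. The lowest value was 2.69, and 0 of the 269 genes lay under 2. The median of the other abundant genes was 124. At a given relative spread this measure grows with the count, and the other abundant genes had a higher median level, so the contrast mixes level with spread. The 8 counts are those the rule used, and they come from separate pools of animals, so this is a description of their spread.

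The 2 genes with the highest mean CPM in the group were followed in each library. ENSRNOG00000011154 was at 2368, 2634, 2524 and 2952 CPM in dura replicates 1 to 4 and at 2726, 2819, 2941 and 2686 CPM in leptomeninges replicates 1 to 4. The lowest and the highest value were both in dura, in replicates 1 and 4, and the leptomeninges values lay between them. It averaged 2620 ± 247 CPM over the dura libraries and 2793 ± 113 CPM over the leptomeninges libraries (SD, n = 4 for each), and its ratio, 1.246, was close to the bound.

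ENSRNOG00000047179 was at 1799, 1997, 1900 and 2122 CPM in dura replicates 1 to 4 and at 1893, 1902, 1921 and 1903 CPM in leptomeninges replicates 1 to 4. The 4 leptomeninges libraries were almost level, with an SD of 11.6 CPM around 1905 CPM, while dura had an SD of 138 CPM around 1954 CPM (n = 4 each). As for the gene before it, dura replicate 1 was the lowest and dura replicate 4 the highest of the 8, and the tissues overlapped.

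The 2 genes with the smallest ratios both had a mean CPM below the group median of 186. ENSRNOG00000011150 was at 171, 178, 166 and 166 CPM in dura replicates 1 to 4 and at 172, 181, 170 and 166 CPM in leptomeninges replicates 1 to 4. It averaged 170.3 ± 5.68 CPM over the dura libraries and 172 ± 6.42 CPM over the leptomeninges libraries (SD, n = 4 for each), and its ratio was 1.093. In both tissues replicate 2 was the highest, and the tissues overlapped over nearly their whole range.

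ENSRNOG00000000999 was at 116, 113, 109 and 119 CPM in dura replicates 1 to 4 and at 114, 113, 112 and 109 CPM in leptomeninges replicates 1 to 4. Dura libraries averaged 114 ± 4.37 CPM and leptomeninges libraries 112 ± 2.16 CPM (SD, n = 4 for each), and its ratio was 1.094. The highest and the lowest library were both of dura, replicates 4 and 3. This gene also had the lowest chi-square per degree of freedom of the group, 2.69, a measure that is smaller at low counts such as its own.

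**Figure D2:**
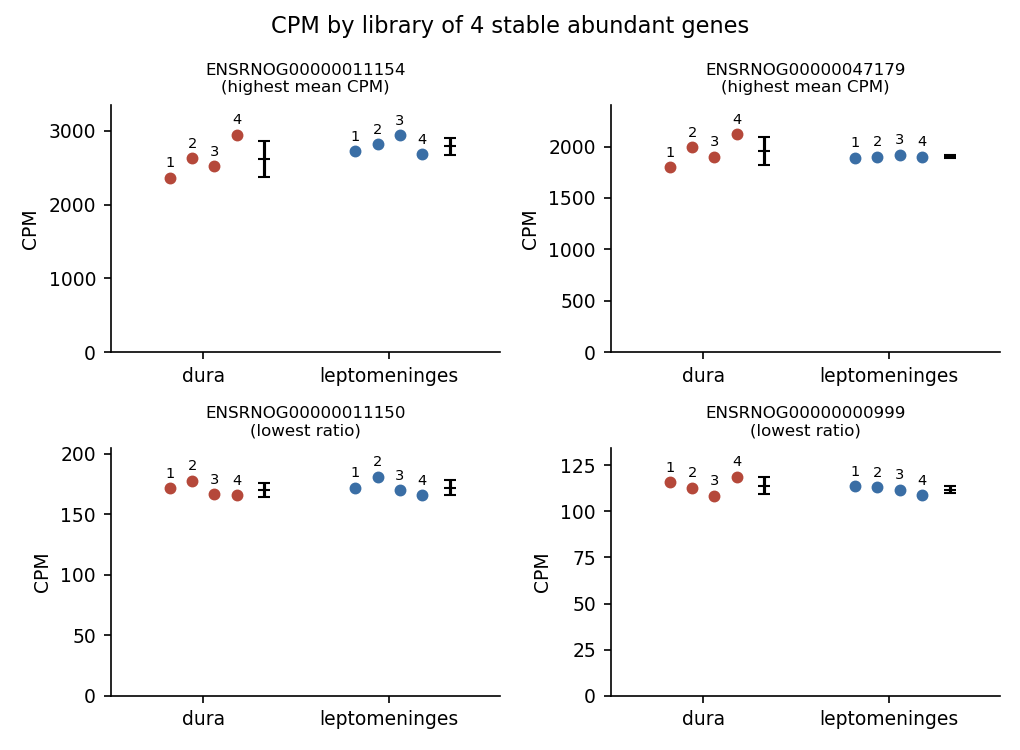
CPM of 4 stable abundant genes in the 4 dura libraries (red) and the 4 leptomeninges libraries (blue), with replicate numbers above the points and the mean ± SD in black (n = 4). The y axes start at 0, and in each panel the tissues overlap.

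The libraries did not share the extremes evenly. Dura replicate 1, which had the fewest reads of all, was the lowest of the 8 for 64 of the 269 genes (23.8%) and the highest for 20. Dura replicate 4, the library with the most reads, was the lowest for 14 (5.204%) and the highest for 40. Dura replicate 3 was most often the highest, for 49 genes, and leptomeninges replicate 2 was both often the highest, for 42, and often the lowest, for 43. With every library thinned to the smallest number of reads, dura replicate 1 was still the lowest for 58 genes and dura replicate 4 for 17.

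The highest and the lowest library belonged to the same tissue for 84 genes and to different tissues for 185. Among the 185, dura held the highest value for 98 and leptomeninges for 87. Within dura the ratio of highest to lowest CPM had a median of 1.125 over the 269 genes and ran from 1.02 to 1.25. Within leptomeninges the median was 1.120 and the range 1.01 to 1.25. The ratio was wider in dura for 144 genes and wider in leptomeninges for 125. Without dura replicate 1 and leptomeninges replicate 2 the medians were 1.096 and 1.083, and the counts were 151 and 118.

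**Figure D3:**
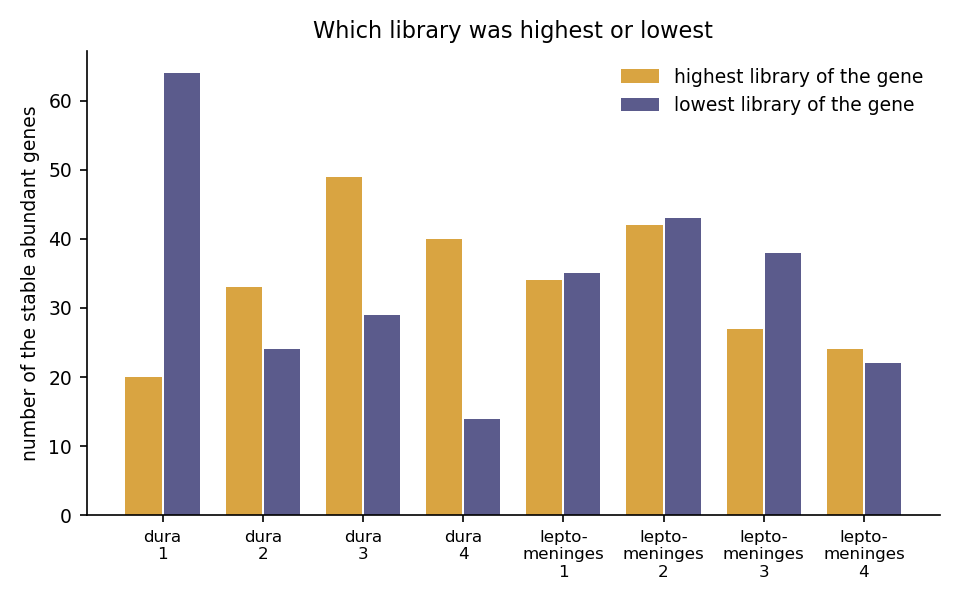
Number of the 269 stable abundant genes for which each library had the highest CPM (yellow bars) or the lowest CPM (blue bars) of the 8. Dura replicate 1 was the lowest for 64 genes and dura replicate 4 for 14.

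The difference between tissue means was small for each gene, as the rule requires. On library-size CPM, 142 genes had a higher mean in dura and 127 in leptomeninges. The largest difference between tissue means was 1.17-fold, 134 of the 269 genes differed by at most 5% and 240 by at most 10%. A small difference in means was not enough to belong to the group. Another 102 abundant genes also had tissue means within 5% of each other, but their ratio of highest to lowest library had a median of 1.33 and reached 2.01.

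For part of the group the direction of the difference depended on the scaling of the libraries. TMM scaling, which assumes that most genes do not differ, gave factors that averaged 1.03 in dura and 0.973 in leptomeninges relative to the counted reads, and so lowered dura values against leptomeninges values. The median log2 fold change of the 269 genes, dura minus leptomeninges, was -0.07 after TMM scaling and 0.01 with library size alone. Over all 13458 genes tested the median was 0.01 after TMM scaling and 0.09 with library size alone, and over the 1458 abundant genes -0.07 and 0.01. The 269 genes thus lay with the abundant genes under either scaling. After TMM scaling 67 of them were higher in dura and 202 in leptomeninges, against 142 and 127 with library size, and the fitted fold change of 75 genes changed sign between the scalings. Their fitted log2 fold changes ran from -0.31 to 0.14, with a median standard error of 0.08.

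In the fit of all genes by edgeR's quasi-likelihood test with TMM scaling, 4 of the 269 genes (1.49%) had a Benjamini-Hochberg adjusted p under 0.05, where 32.1% of all tested genes and 44.8% of the abundant genes did. The rule used this contrast, so the low count says nothing further about the genes. All 4 were higher in leptomeninges, with log2 fold changes between -0.31 and -0.24. Over all tested genes 16.2% were called higher in leptomeninges and 15.9% higher in dura. Calls among the other abundant genes leaned to leptomeninges too. Of 722 that exceeded 1.25-fold within at least 1 tissue, 123 were called higher in dura and 234 in leptomeninges. Of 467 that exceeded it only across the tissues, 108 were called higher in dura and 184 in leptomeninges. For 2 of the 4 genes the libraries did not overlap between the tissues on library-size CPM. With library size alone 3 of the 269 genes were called, 2 higher in dura and 1 in leptomeninges, and 1 gene was called under both scalings. Over all tested genes 4317 were called with library size alone, 2523 higher in dura and 1794 in leptomeninges. The 4 genes called after TMM scaling were all higher in leptomeninges with library size too. DESeq2 called 12 of the 269 and limma-voom 10, all higher in leptomeninges. Over all genes DESeq2 called 4647, 2376 higher in dura and 2271 in leptomeninges. Limma-voom called 4574, 2218 higher in dura and 2356 in leptomeninges.

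The 2 tissues did not overlap in library-size CPM for 23 of the 269 genes, 17 with dura above and 6 with leptomeninges above. The background was 33.9% of all tested genes (20.2% with dura above and 13.7% with leptomeninges above) and 47.3% of the abundant genes. After TMM scaling 32 did not overlap, 1 with dura above and 31 with leptomeninges above. Over all tested genes 33.9% did not overlap after TMM scaling, 17.1% with dura above and 16.7% with leptomeninges above. Of the 23 genes, 7 also did not overlap after TMM scaling, and 22 kept the sign of their difference.

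Membership itself moved with the scaling. The same bounds on TMM-scaled CPM gave 243 genes. They shared 158 with the 269, which is 58.7% of the 269 and 65.0% of the 243. Upper-quartile scaling gave 267 genes and shared 206, and DESeq2's median-ratio scaling gave 237 and shared 157. All 4 scalings had 154 genes in common, 57.2% of the 269. ENSRNOG00000047179, ENSRNOG00000011150 and ENSRNOG00000000999 belonged to these 154. ENSRNOG00000011154 did not: its ratio rose from 1.246 to 1.334 after TMM scaling. Over the 269 genes the ratio after TMM scaling had a median of 1.23 and reached 1.41.

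Values the choice did not use came from leaving a library out. The rule was applied to 7 libraries, and the chosen genes were read in the eighth as the log2 ratio of its CPM to their mean CPM in the other 7. The choice on 7 libraries gave between 298 and 392 genes. In the library left out, the median size of this log2 ratio was 0.10, 0.08, 0.09 and 0.07 for dura replicates 1 to 4 and 0.09, 0.13, 0.08 and 0.07 for leptomeninges replicates 1 to 4. For the other genes at 100 CPM or more in the same 7 libraries it was 0.22, 0.21, 0.22 and 0.20 in dura and 0.21, 0.27, 0.19 and 0.22 in leptomeninges. The chosen genes deviated less than the other abundant genes in 8 of 8 libraries, and the least favourable value among the chosen, 0.13, was below the most favourable among the others, 0.19. The other genes also varied more among the 7, by the choice, so their mean is less certain. They include genes that differ between the tissues, for which any library lies away from the mean of the other 7. The 7 hold libraries of the same tissue as the eighth, so part of this contrast comes with the choice. The 8 readings share libraries and are not independent of each other, so they are given with no test.

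Most chosen genes stayed within 1.25-fold of the mean of the other 7 libraries in the library left out. This limit allows 1.25-fold on either side of a mean, so it is looser than the rule on highest to lowest CPM. By the rule over all 8 libraries, 68.6% (leptomeninges replicate 2 left out) to 90.3% (dura replicate 4 left out) of the chosen genes were kept. The shares that follow are for the looser limit. The share within it was 97.2%, 98.4%, 97.2% and 99.7% for dura replicates 1 to 4 and 99.3%, 87.2%, 99.3% and 98.7% for leptomeninges replicates 1 to 4. Among the other abundant genes it lay between 57.0% and 70.9%, with the same limit on the comparison. The median chosen gene sat slightly low in dura replicate 1, at a signed log2 ratio of -0.05, and slightly high in dura replicates 2, 3 and 4, at 0.02, 0.02 and 0.03. The largest deviation of any chosen gene was 1.51-fold, in leptomeninges replicate 3.

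Leptomeninges replicate 2 limited the size of the group more than any other library. The choice without it gave 392 genes, of which the 269 were 68.6%, while the choice without any 1 of the other 7 gave 298 to 319 genes, of which the 269 were 84.3% to 90.3%. Without both leptomeninges replicate 2 and dura replicate 1 the rule gave 457 genes, over 1.5 times as many.

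**Figure D4:**
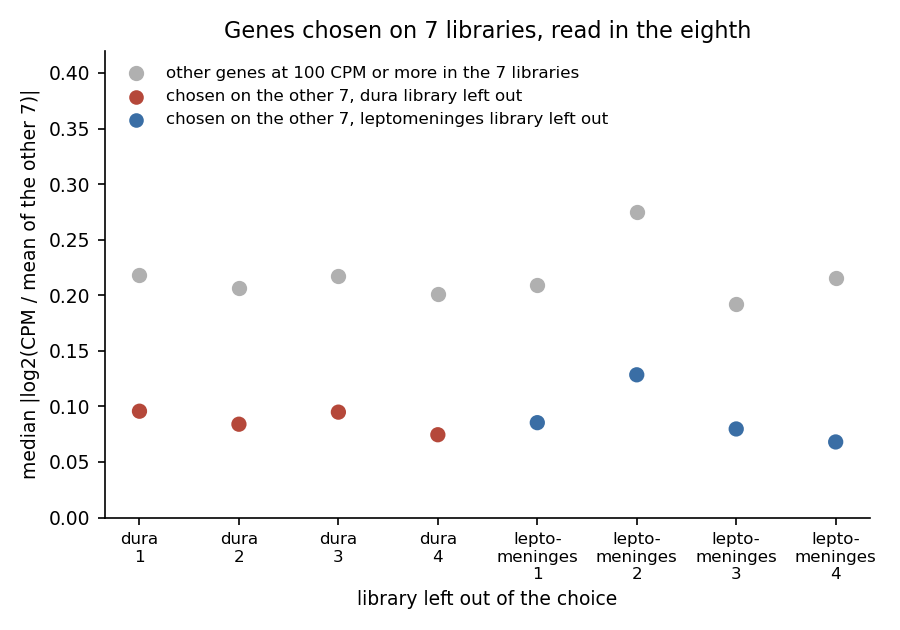
For each library left out, the median size of the log2 ratio of its CPM to the mean CPM of the other 7, for genes chosen by the rule on those 7 (red, dura; blue, leptomeninges) and for the other genes at 100 CPM or more in them (grey). The chosen genes lie between 0.07 and 0.13 and the others between 0.19 and 0.27.

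A second reading compared the spread within dura with the spread within leptomeninges. By the dura libraries alone 1369 genes reached 100 CPM and kept within 1.25-fold, and by the leptomeninges libraries alone 1027 did. Genes were then held to 100 CPM in all 8 libraries, so both tissues set which genes were compared. Of the 1458 abundant genes, 1103 kept within 1.25-fold over the 4 dura libraries, 899 over the 4 leptomeninges libraries and 736 within each tissue. These 736 were 66.7% of the genes stable in dura and 81.9% of those stable in leptomeninges. Of the 355 abundant genes that were not stable in dura, 163 (45.9%) were stable in leptomeninges, and of the 559 not stable in leptomeninges, 367 (65.7%) were stable in dura. Without leptomeninges replicate 2, 1168 genes were stable in leptomeninges, against 963 to 1021 without any 1 of the other leptomeninges libraries. With 1 dura library left out, 1177 to 1258 genes were stable in dura. Fewer libraries loosen the bound, so these counts are to be compared with each other and not with the counts on 4 libraries.

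The 269 genes were 36.5% of the 736 that were stable within each tissue. The other 467 were stable within dura and within leptomeninges but exceeded 1.25-fold over all 8 libraries. A range over 8 libraries is wider than a range over 4 even where tissues do not differ. This choice favours genes that differ between the tissues, so the values that follow describe it, with no test. In library-size CPM 345 of the 467 (73.9%) did not overlap between the tissues. The share was 47.3% of the abundant genes and 33.9% of all tested genes. The median difference between tissue means of the 467 was 1.25-fold. Of the 467, 94 differed more than 1.5-fold and 34 more than 2-fold, 15 toward dura and 19 toward leptomeninges. The largest differences were 3.48-fold toward dura and 5.07-fold toward leptomeninges. The median mean CPM of the 467 was 228.

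Choosing the 736 set no bound on the difference between tissues, but it did use the spread within them. The floor of 100 CPM in all 8 libraries also dropped genes that were low in the other tissue. Of the 1369 genes stable by the dura libraries alone, 1103 also reached it in leptomeninges. Of the 1027 stable by the leptomeninges libraries alone, 899 also reached it in dura. The shares that follow hold for genes abundant in both tissues, and how far the floor changed them was not tested. Of the 736, 368 (50%) did not overlap between the tissues in library-size CPM, where 47.3% of the abundant genes and 33.9% of all tested genes did not. By edgeR 296 (40.2%) were called at an adjusted p under 0.05, where 32.1% of all tested genes and 44.8% of the abundant genes were, and the choice of genes with little spread makes these p-values too small. By direction 108 of the 736 were called higher in dura and 188 in leptomeninges. Among the 722 other abundant genes the counts were 123 and 234, and over all tested genes the shares were 15.9% and 16.2%. With library size alone the 736 gave 168 and 154, and all tested genes 2523 and 1794. Of the 722 other abundant genes 44.6% did not overlap and 49.4% were called. The 736 thus had the higher share without overlap and the lower share by calls. A narrow range within each tissue by itself makes it likelier that tissues do not overlap. The higher share without overlap is therefore partly set by the choice. Of the 296 calls, 4 fell among the 269.

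**Figure D5:**
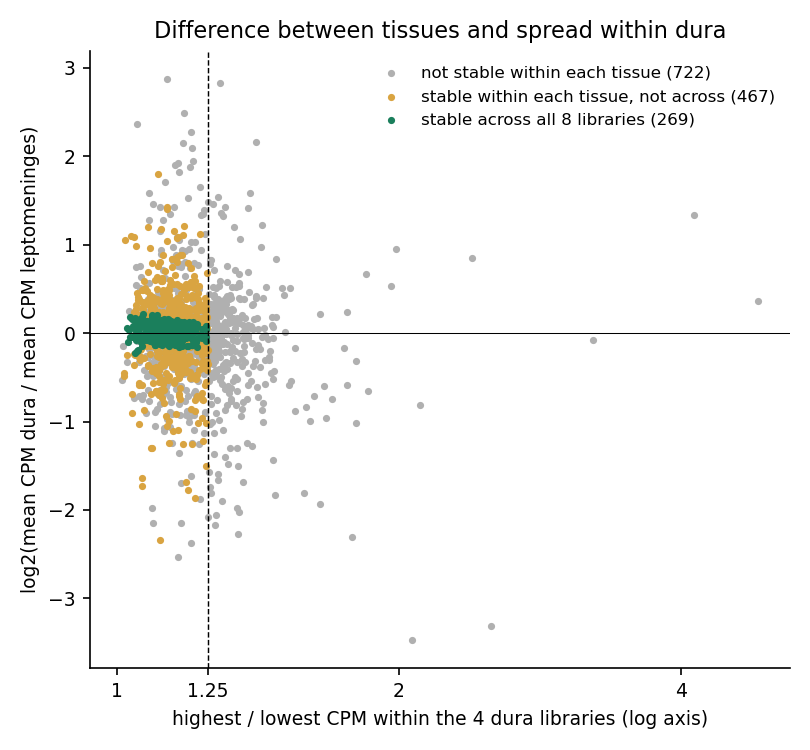
Each point is 1 of the 1458 abundant genes, with the ratio of its highest to its lowest CPM within the 4 dura libraries on a log axis against the log2 ratio of its mean CPM in dura to that in leptomeninges. The 269 genes stable across all 8 libraries (green) form a narrow band around 0, and the 467 genes stable within each tissue alone (yellow) spread above and below it, up to 3.48-fold toward dura and 5.07-fold toward leptomeninges.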

How the data were processed

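For each library the authors deposited a table of raw counts by Ensembl rat identifier. Per the submitters' processing notes, the build was rn6 and the tools were bcl2fastq 2.20, STAR 2.5 and featureCounts 1.5.0-p1. Strand setting, annotation and handling of multimapping reads are not given in the sources at hand, so reads of overlapping genes or near-identical copies cannot be told apart. Per the labels' protocols, tissue was digested with Liberase TM and DNase, RNA came from a TRIzol extraction and libraries from the TruSeq kit.

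Groups and replicate numbers came from the sample titles. CPM was the count over the counted total of the library. The test across all genes used filterByExpr (minimum count 10, minimum total 15), TMM scaling and edgeR 4.0.16 in R 4.3.3, with tissue as the only term, two-sided p-values and Benjamini-Hochberg adjustment at 0.05. It was checked on simulated data. Standard errors are the size of the log2 fold change over the square root of the F statistic. Alternatives were 3 other scalings, other bounds, other filters, DESeq2 1.42.0, limma-voom (limma 3.58.1), the replicate block and leaving out libraries.

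The members and lists were chosen with earlier results of these data known. The rule for named genes took reference genes, members of gene lists and extremes, and, without symbols, the 2 members of highest mean CPM and the 2 of lowest ratio. The 33 planned gene lists, 8 promoter motifs and protein lengths needed symbols and were not analysed here. The labels give no animal, litter, batch or day that same-numbered libraries share, and the numbers were not taken to pair them. Deviations from the group means were correlated across genes between dura and leptomeninges libraries. For replicates 1, 2, 3 and 4 the correlations were 0.112, 0.144, 0.00263 and -0.00439, which is over 0.1 for 2 of the 4 numbers. Between libraries of different number they ran from -0.161 to 0.101. A shared handling of same-numbered libraries was not tested otherwise.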

Additional observations from a re-analysis of the deposited data

Results flagged for a closer look

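Dixon's test at its 95% level was applied to 20 sets of 4 libraries of 1 tissue, and 1 set held a library that stood apart. Independent sets would give about 1 in 20 by chance. These sets share libraries, and the flagged values come from the rule itself, so the test cannot say whether chance gave this one. The 269 genes were 68.6% of the genes chosen without leptomeninges replicate 2, against 88.2% to 90.0% for each of the other leptomeninges libraries.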

How the results depend on the processing

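The number of stable abundant genes, 269, followed its bounds: 458 with a minimum of 50 CPM, 106 with a minimum of 200 CPM, 138 with a ratio of at most 1.2, 815 with at most 1.5 and 1185 with at most 2. It lay between 298 and 392 with 1 library left out, and was 457 without dura replicate 1 and leptomeninges replicate 2, a choice made after seeing the data. After thinning all libraries to the smallest total, also chosen after seeing the data, it was 260, of which 246 were among the 269. Fewer libraries loosen the rule by construction. The number of genes stable within each tissue lay between 700 and 1088, within 1.5 times of 736. The number of genes differing between tissues, 4317, lay between 3761 and 4647.

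The 4 calls among the 269 genes became 2 without a filter on low counts, 7 with a filter at 1 CPM, 12 with DESeq2, 10 with limma-voom and 2 without dura replicate 1 and leptomeninges replicate 2, and lay between 2 and 7 with 1 library left out (2 without dura replicate 1, leptomeninges replicate 1 or leptomeninges replicate 4, and 7 without dura replicate 2). The cause was not tested. With the replicate number as a block there were 5 such calls and 4400 over all genes. The numbers were not taken to pair the libraries, and not every library correlated best with its own number. The median log2 fold change of the 269 genes, -0.07, was 0.0124 with library size alone, lay between -0.10 and -0.04 with 1 library left out, and was -0.03 without dura replicate 1 and leptomeninges replicate 2. With library size alone that of ENSRNOG00000047179 turned from -0.0428 to 0.0383 and that of ENSRNOG00000000999 from -0.0526 to 0.0290, and that of ENSRNOG00000047179 was 0.0309 without the 2 libraries above. Other settings for gene lists, promoter motifs and protein length needed gene symbols and were not run.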
